A study of Mus musculus with 9 samples.

Results

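The mitochondrial ribosomal protein genes were examined in sorted natural killer (NK) cells of mice, on Affymetrix oligonucleotide arrays. A gene was taken as a member when a probe set carried its symbol alone and the symbol began with Mrpl or Mrps followed by a digit. This gave 76 genes out of 18193 named genes, with 156 probe sets out of 45101. Of these, 47 genes with 104 probe sets are named for the large subunit and 29 genes with 52 probe sets for the small subunit. Each gene was represented by its brightest probe set, and by that probe set all 76 passed the filter on low values, as did 12925 genes of the whole array. Mrpl30 and Mrpl53 have no probe set of their own and were not analysed here.

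The arrays form 3 groups of 3 biological replicates. NK cells came from the spleens of IL15tg mice, whose transgene supplies extra interleukin-15, a cytokine that NK cells depend on, and the design text calls them mature. The other groups are NK cells that the design text calls immature, from the spleens and from the bone marrow of NKDxIL15tg mice, which carry the same IL-15 transgene on the NKD background, a transgenic line known for a deficit of mature NK cells. The spleen comparison therefore differs in genotype and in stated maturity together, which cannot be told apart, and the comparison of marrow with IL15tg spleen adds the organ. Neither the promoter of the transgenes, the age of the mice nor the number of animals behind a replicate is given in the sources used here, so the p-values measure the spread between these samples, part of which may be technical.

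Mitochondria keep their own ribosome, which translates the few messages of mitochondrial DNA into core subunits of the respiratory chain. Its proteins are encoded in the nucleus, made in the cytosol and imported, and then assemble on the mitochondrial rRNAs into a large subunit, which forms peptide bonds and holds the exit tunnel, and a small subunit, which holds the mRNA and decodes it. Some of the proteins have counterparts in bacterial ribosomes and others are found in mitochondria only. In NK cells, mitochondrial activity is known to differ between resting, activated and dividing states.

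One array stood apart. NKDxIL15tg bone marrow replicate 3 had a median intensity of 64.9, against 56.6 to 59.1 in the other 8, and 2080 of its probe sets lay over 2-fold above every other array, against at most 6 for any other. Among the members, Mrpl14, Mrpl48 and Mrps12 lay over 2-fold above all other arrays there. The counts of called members and the median changes in marrow are given with and without it, as are changes of Mrpl14, Mrpl48, Mrps12 and Mrps27. This array held the highest value of all 9 for 25 members. For most of them, and for the counts of groups that did not overlap, values are given only with it. Sums over 8 NK cell markers were 31340 to 32735 in IL15tg spleen, 22854 to 24488 in NKDxIL15tg spleen and 20379 to 22436 in bone marrow. These sums hide single markers that were called lower, which are given with the other markers below. Sums over 9 markers of neutrophils and monocytes ran the other way, at 1274 to 1610, 3381 to 7850 and 11158 to 28425, with the highest value in bone marrow replicate 3. In sorted populations measured in bulk, a change in the mix of cells and a change in RNA per cell cannot be told apart.

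In the spleen, 11 of the 76 genes were higher in NKDxIL15tg than in IL15tg NK cells and none was lower. Mrpl3, of the large subunit, and Mrps10 and Mrps28, of the small subunit, differed by more than 2-fold. Mrps18a, Mrps18b, Mrps22 and Mrps34 of the small subunit and Mrpl21, Mrpl23, Mrpl50 and Mrpl54 of the large subunit made up the rest, between 1.40-fold and 1.78-fold. A gene was called when its limma p, adjusted by Benjamini-Hochberg over the 27022 probe sets tested, was under 0.05. The 14.5% of members called stand beside 12.5% of all genes tested that were called in either direction, and the 11 higher members beside 7.65% of all genes called higher and 4.87% called lower.

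Mrpl3, the counterpart of a bacterial protein close to the site of peptide bond formation, changed most. The intensities of Mrpl3 were 1464, 1375 and 1218 in IL15tg spleen and 3245, 2987 and 3311 in NKDxIL15tg spleen. Bone marrow gave 3142, 3098 and 3132. Both NKDxIL15tg groups lay above all IL15tg arrays with no overlap, and they overlapped each other. The log2 change in the spleen was 1.24 ± 0.11 (SE, adjusted p = 0.000148), and that of marrow against IL15tg spleen was 1.21 ± 0.11 (adjusted p = 0.000137). The 3 other tested probe sets of Mrpl3 were called higher as well in both comparisons against IL15tg. Their log2 changes in the spleen were 2.21, 0.71 and 1.37, from the brighter to the dimmer probe set.

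**Figure D1:**
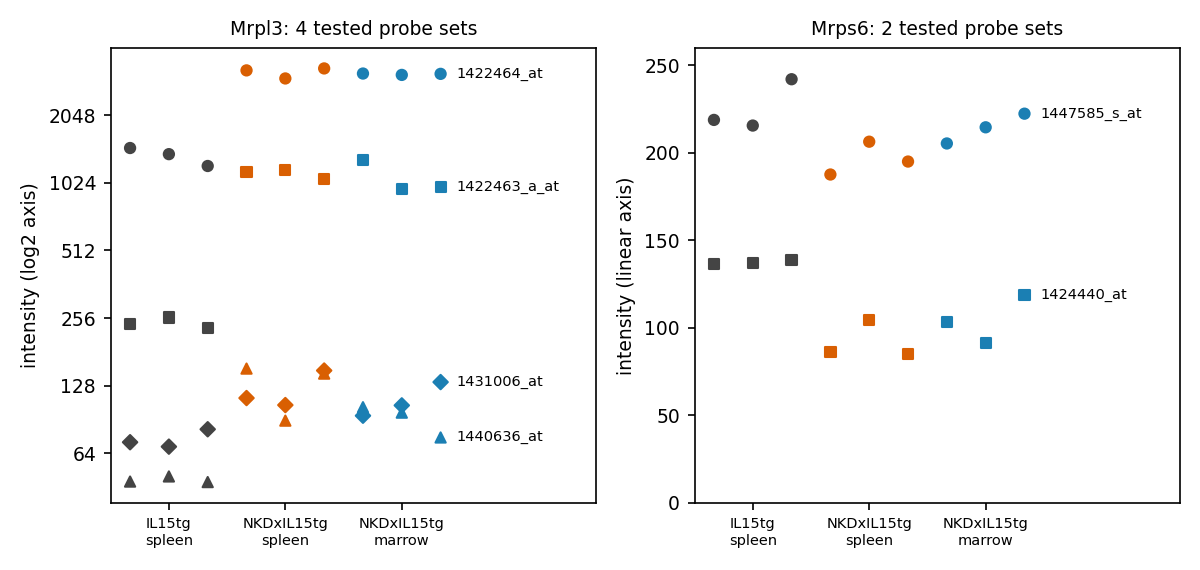
Intensity of every tested probe set of Mrpl3 (left, log2 axis) and Mrps6 (right, linear axis) in each array; the 3 points of one colour and symbol are the 3 replicates of a group, in the order of their numbers. All 4 probe sets of Mrpl3 sit higher in both NKDxIL15tg groups, while the 2 of Mrps6 sit lower in NKDxIL15tg spleen.

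The bases before the annotated starts of 4 of the called genes are shown because these genes share the change in NKDxIL15tg cells while the motifs found before their starts differ. Each is the 120 bases upstream of the start, 5′ to 3′ on the gene's strand, from RefSeq on GRCm38.p6. Capitals mark CCGGAAGT, the core bound by GABPA and other ETS factors, which are known regulators of nuclear genes for mitochondrial proteins. Mrpl3 lies at chr9:105053148-105053267 (plus strand), Mrps22 at chr9:98601680-98601799 (minus strand), Mrps10 at chr17:47369077-47369196 (plus strand) and Mrps18b at chr17:35916441-35916560 (minus strand).
Mrpl3: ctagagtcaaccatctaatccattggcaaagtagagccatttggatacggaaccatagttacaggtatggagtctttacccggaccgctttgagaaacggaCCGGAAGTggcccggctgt
Mrps22: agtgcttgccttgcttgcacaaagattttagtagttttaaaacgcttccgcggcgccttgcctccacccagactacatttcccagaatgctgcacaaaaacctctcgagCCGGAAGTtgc
Mrps10: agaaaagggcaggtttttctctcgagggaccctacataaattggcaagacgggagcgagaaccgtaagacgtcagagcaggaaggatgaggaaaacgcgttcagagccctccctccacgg
Mrps18b: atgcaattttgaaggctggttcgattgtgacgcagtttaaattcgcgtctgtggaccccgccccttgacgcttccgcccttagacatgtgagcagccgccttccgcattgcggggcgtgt

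The ETS core ended close to the start in Mrpl3 and Mrps22, with its first base at -19 and -11 from the start. No such match was found in these letters for Mrps10 and Mrps18b.

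The small subunit genes that changed most were Mrps10 and Mrps28. Mrps10, a protein of the subunit's head with a bacterial counterpart, read 117, 117 and 123 in IL15tg spleen and 236, 332 and 255 in NKDxIL15tg spleen. Marrow gave 299, 319 and 203, so that every NKDxIL15tg array lay above every IL15tg array. Its log2 change was 1.19 ± 0.19 in the spleen (adjusted p = 0.00422) and 1.17 ± 0.19 in marrow against IL15tg spleen (adjusted p = 0.0031). Mrps28 gave 107, 126 and 136 in IL15tg spleen against 231, 322 and 222 in NKDxIL15tg spleen, with 285, 385 and 208 in marrow. The groups did not overlap with IL15tg, and the spread was wide within both NKDxIL15tg groups. Its log2 changes were 1.06 ± 0.23 (adjusted p = 0.0182) and 1.21 ± 0.23 (adjusted p = 0.00703).

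Mammals have 3 paralogs of the bacterial protein S18, of which Mrps18a and Mrps18b passed the test here. Mrps18a gave 102, 117 and 93.0 in IL15tg spleen against 192, 217 and 150 in NKDxIL15tg spleen, with 179, 165 and 202 in marrow. Mrps18b gave 339, 362 and 363, then 632, 667 and 560, then 811, 656 and 730. Both were higher in both NKDxIL15tg groups without overlap, with log2 changes in the spleen of 0.83 ± 0.16 for Mrps18a (adjusted p = 0.0107) and 0.80 ± 0.12 for Mrps18b (adjusted p = 0.00289). The third paralog, Mrps18c, gave 848, 931 and 1073 in IL15tg spleen and 856, 1173 and 1079 in NKDxIL15tg spleen. These values overlapped, and Mrps18c passed the test in no comparison; the difference between the paralogs' changes was not tested.

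The other called genes changed by less. Mrpl21, with a bacterial counterpart, read 241, 243 and 237 in IL15tg spleen and 363, 407 and 377 in NKDxIL15tg spleen, a log2 change of 0.67 ± 0.10 (adjusted p = 0.00375). Mrpl54, a mitochondria-specific protein of the large subunit's stalk, read 74.1, 75.5 and 74.2 against 108, 122 and 104. Its log2 change was 0.58 ± 0.12 (adjusted p = 0.0133). Mrps34 and Mrps22, both specific to the mitochondrial small subunit, had log2 changes of 0.58 ± 0.15 and 0.56 ± 0.13. For Mrpl50 the change was 0.52 ± 0.11, and Mrpl23, at the exit tunnel, came last with 0.49 ± 0.14 (adjusted p = 0.0475). All 11 called genes lay above IL15tg in every NKDxIL15tg spleen array.

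**Figure D2:**
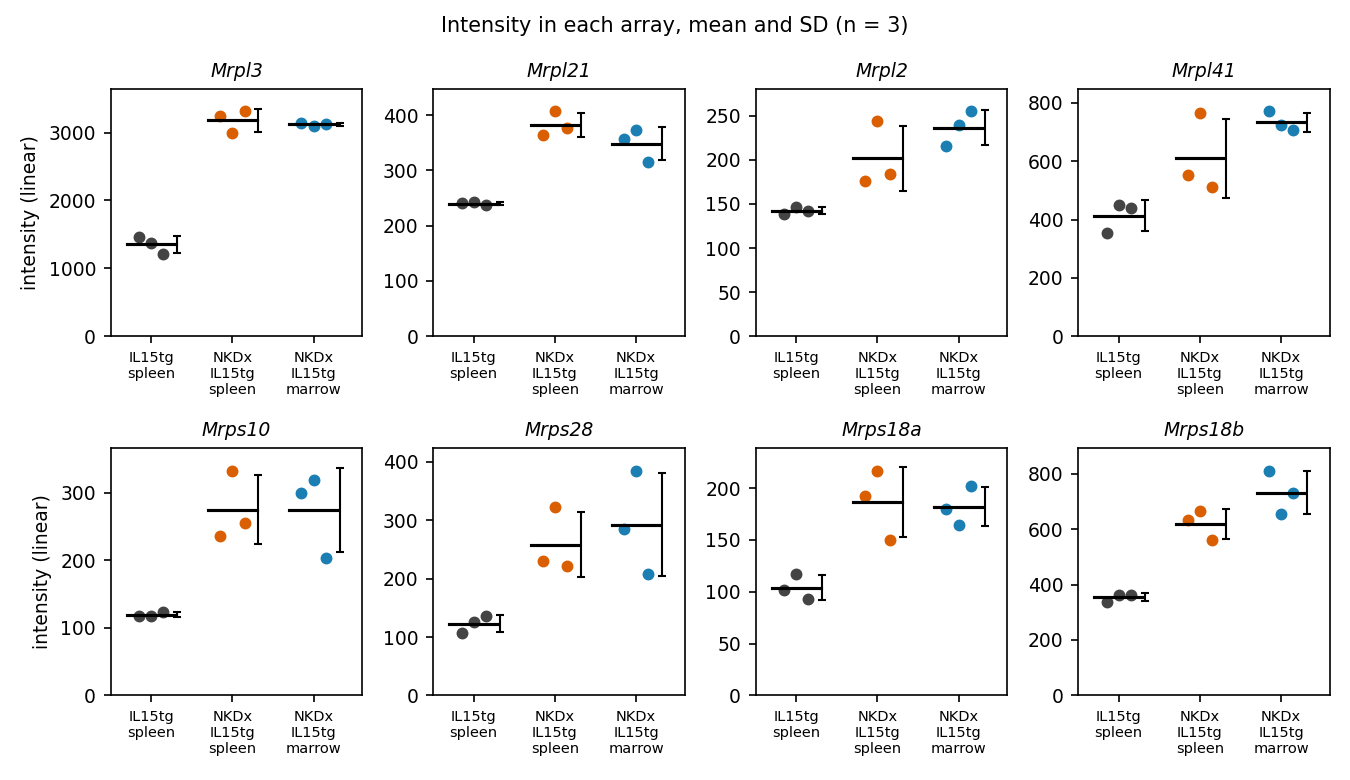
Intensity (linear, from 0) of 4 large subunit genes (upper row) and 4 small subunit genes (lower row) in each of the 9 arrays; points are arrays, bars the mean of 3 and whiskers 1 SD. Mrpl3 rises from 1352 ± 125 (IL15tg) to 3181 ± 171 and 3124 ± 22.9 in the NKDxIL15tg groups, and the other 7 are also higher in marrow than in IL15tg spleen.

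With 1 array left out, 5 of these 11 calls held in every case: Mrpl3, Mrpl21, Mrps10, Mrps18a and Mrps18b. The total was 6 without IL15tg replicate 1, 5 without IL15tg replicate 2, 6 when NKDxIL15tg spleen replicate 2 was dropped. The share of all genes called moved along, to 6.35%, 6.21% and 7.51% in these fits. When bone marrow replicate 3, which enters the pooled spread, was dropped, 21 members and 18.4% of all genes were called. Mrps28 missed the threshold without IL15tg replicate 1 or 2 or NKDxIL15tg spleen replicate 2 (adjusted p = 0.0613 to 0.0774). Mrpl54 missed it without IL15tg replicate 1 or 2 (adjusted p = 0.0517 to 0.0539), and Mrpl50 without IL15tg replicate 2 or 3 or NKDxIL15tg spleen replicate 2 (adjusted p = 0.0579 to 0.0667). Mrps22 missed it without any 1 of the 3 IL15tg arrays or NKDxIL15tg spleen replicate 2 (adjusted p = 0.058 to 0.0869), and Mrps34 without those 4 or NKDxIL15tg spleen replicate 1 (adjusted p = 0.0574 to 0.116). Mrpl23 kept its call only without bone marrow replicate 3 (adjusted p = 0.0528 to 0.171 in the other cases).

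Among the 65 genes that did not pass, most values still lay above 0. Over all 76 members the median log2 change in the spleen was 0.21, against 0.02 over all genes tested. Above 0 lay 62 members (81.6%), beside 53.7% of all genes tested. The groups did not overlap for 30 members that were higher in NKDxIL15tg spleen and for 3 that were lower, which is 39.5% and 3.95% of the members. Over all genes tested these shares were 21.3% and 15.1%. The 3 lower ones were Mrps6, Mrpl49 and Mrps12, with log2 changes of -0.20, -0.17 and -0.13 that did not pass the test.

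Mrps6, a small subunit protein with a bacterial counterpart, had the lowest change of all members and its probe sets gave different calls. The brighter read 219, 216 and 242 in IL15tg spleen and 188, 206 and 195 in NKDxIL15tg spleen (adjusted p = 0.235). The dimmer read 137, 137 and 139 against 86.0, 104 and 85.0. That is a log2 change of -0.59 (adjusted p = 0.0181), the only lower call among the 136 tested probe sets of the members in this comparison, beside 19 higher ones. Over all 27022 probe sets tested, 7.04% were lower and 6.75% higher. Conversely Mrpl11, Mrpl28, Mrpl41 and Mrpl44 were not called by the brightest probe set but had another that was higher. Only 4 of the 11 called genes had another tested probe set, and of those 7 probe sets the 3 of Mrpl3 were called and 4 did not pass. One of these 4, of Mrpl21, went the other way without overlap. It read 113, 109 and 113 in IL15tg spleen against 100, 86.8 and 99.8 in NKDxIL15tg spleen (log2 change -0.23, adjusted p = 0.220). With the mean of each gene's probe sets Mrpl21 missed the threshold (limma, adjusted p = 0.0893). So did Mrpl54 (adjusted p = 0.221) and Mrpl50.

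In bone marrow compared with IL15tg spleen, 29 of 76 genes were higher and none was lower. These IL15tg arrays are the same as in the spleen comparison, so the comparisons are not independent. All genes called in the spleen were called here too, except Mrpl50, which read 148, 151 and 148 in marrow against 135, 131 and 121 in IL15tg spleen (log2 change 0.21, adjusted p = 0.196). The 38.2% of members called stand beside 20.2% of all genes tested, of which 11.5% were higher and 8.7% lower. The median log2 change was 0.37 over the members and 0.12 over all genes tested. Above 0 lay 71 members (93.4%), beside 62.5% of all genes tested. Groups did not overlap for 54 higher members and 1 lower member, Mrpl49; the shares over all genes were 25.4% and 16.6%.

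After Mrpl3, the called large subunit genes with the biggest changes in marrow were Mrpl48, Mrpl41, Mrpl42, Mrpl2 and Mrpl23. Mrpl48, at the central protuberance, gave 200, 204 and 202 in IL15tg spleen and 292, 305 and 665 in marrow. The last value is that of the array that stood apart. Its log2 change was 0.95 ± 0.27 (adjusted p = 0.0386), and 0.56 without that array (adjusted p = 0.00628). Mrpl41, a mitochondria-specific protein also studied for a role in cell death, gave 353, 449 and 439 against 771, 724 and 709, a log2 change of 0.84 ± 0.17 (adjusted p = 0.00815).

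Mrpl2, the counterpart of a bacterial protein at the peptidyl transferase centre, gave 139, 147 and 142 against 215, 240 and 255. This is a log2 change of 0.73 ± 0.14 (adjusted p = 0.00696). Mrpl42 gave 343, 440 and 348 against 603, 629 and 643, a log2 change of 0.74 ± 0.19 (adjusted p = 0.0246). Mrpl23, with 302, 349 and 368 against 556, 600 and 481, had a log2 change of 0.68 ± 0.14 (adjusted p = 0.00903). For all of these genes the marrow arrays lay above every IL15tg spleen array. Of the small subunit, Mrps18b had a log2 change of 1.04 ± 0.12 (adjusted p = 0.000528) and Mrps18a one of 0.81 ± 0.16.

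The remaining 19 called genes ranged from a log2 change of 0.33 for Mrpl44 to 0.64 for Mrpl35. They include Mrpl15, Mrpl20, Mrpl28, Mrpl34 and Mrpl45 of the large subunit and Mrps5, Mrps16, Mrps21, Mrps22 and Mrps27 of the small subunit. Mrps5 is the counterpart of a bacterial protein that lies at the entry of the mRNA. Its call (adjusted p = 0.0487) held in 3 of the 9 fits that leave out 1 array, and was lost without marrow replicate 3. Of the 9 other alternatives, 1 kept it. Mrpl45 lies at the exit tunnel, where the mitochondrial ribosome is known to touch the inner membrane. Among the other tested probe sets of the called genes, 11 of 30 were also higher and 19 did not pass, 5 of them below 0. Over all probe sets tested, 9.79% were higher and 11.5% lower. Of the 13 called genes with such probe sets, 6 had none that passed. With the mean of each gene's probe sets, Mrpl13, Mrpl17, Mrpl21, Mrpl35, Mrpl54, Mrps5 and Mrps21 missed the threshold. Mrps21 (limma, adjusted p = 0.548) and Mrps5 (adjusted p = 0.287) missed it by the most. Mrpl11 and Mrpl19 were not called by the brightest probe set but had another that was higher. For Mrpl1, the brightest probe set read 138, 174 and 182 in IL15tg spleen and 200, 243 and 174 in marrow (log2 change 0.32, not passed), while the next brightest was called lower, with a log2 change of -0.48 (adjusted p = 0.0288).

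Leaving out bone marrow replicate 3, 27 members were called in this comparison, 24 of them among the 29, and the medians were 0.36 for large and 0.34 for small subunit genes against 0.06 over all genes tested. The share of all genes called was 21.7% in that fit. The total fell to 12 without IL15tg replicate 1, 19 without IL15tg replicate 2 and 18 without IL15tg replicate 3, and the share of all genes called fell as well, to 10.7%, 11.7% and 13.1%. The same 12 calls held whichever array was left out: Mrpl2, Mrpl3, Mrpl21, Mrpl23, Mrpl28, Mrpl34, Mrpl35, Mrpl41, Mrps10, Mrps18a, Mrps18b and Mrps28. Mrpl48 missed the threshold without any 1 of the 6 spleen arrays (adjusted p = 0.0517 to 0.112). Mrpl42 missed it without IL15tg replicate 1 or 3 or bone marrow replicate 1 or 2 (adjusted p = 0.0519 to 0.0948). Without IL15tg replicate 1, the array with the lowest value of all 9 for 37 of the 76 members, all of the other 17 calls were lost, Mrps22 (adjusted p = 0.0503) and Mrpl54 (adjusted p = 0.0507) by the least.

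Between the NKDxIL15tg groups no member passed the test. Of all genes tested, 0.0696% passed, 0.0232% higher and 0.0464% lower, which is 9 genes, so this comparison gave few calls of any kind. At an unadjusted p under 0.05, 10 members were found, 9 of them higher in marrow, which is 13.2% of the members beside 10.9% of all genes tested. The lowest adjusted p of any member was 0.358. The median log2 change of the members was 0.16 against 0.03 over all genes tested. Above 0 lay 58 members (76.3%), beside 56.4% of all genes tested. Without marrow replicate 3 the median was again 0.16, against 0.01 over all genes tested, with 65 members above 0 and none called. Leaving out any 1 array, at most 0.0775% of all genes were called. The share of all genes above 0 without marrow replicate 3 is not given here. For 12 members the marrow arrays lay above all spleen arrays and for 2 below (15.8% and 2.63% of the members), beside 10.8% and 6.03% of all genes.

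The largest values here came with the array that stood apart. Mrpl14 gave 132, 131 and 118 in NKDxIL15tg spleen and 155, 142 and 456 in marrow, a log2 change of 0.77 ± 0.37, or 0.23 without that array. Mrps12, whose only probe set may bind transcripts of other genes, gave 217, 251 and 250 against 254, 283 and 613, a log2 change of 0.57 ± 0.28, or 0.17 without it. For both, the first 2 marrow values lay within 1.5-fold of the spleen values. The lowest change was that of Mrpl50, at -0.30 ± 0.11, where 162, 196 and 196 in spleen stood against 148, 151 and 148 in marrow.

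**Figure D3:**
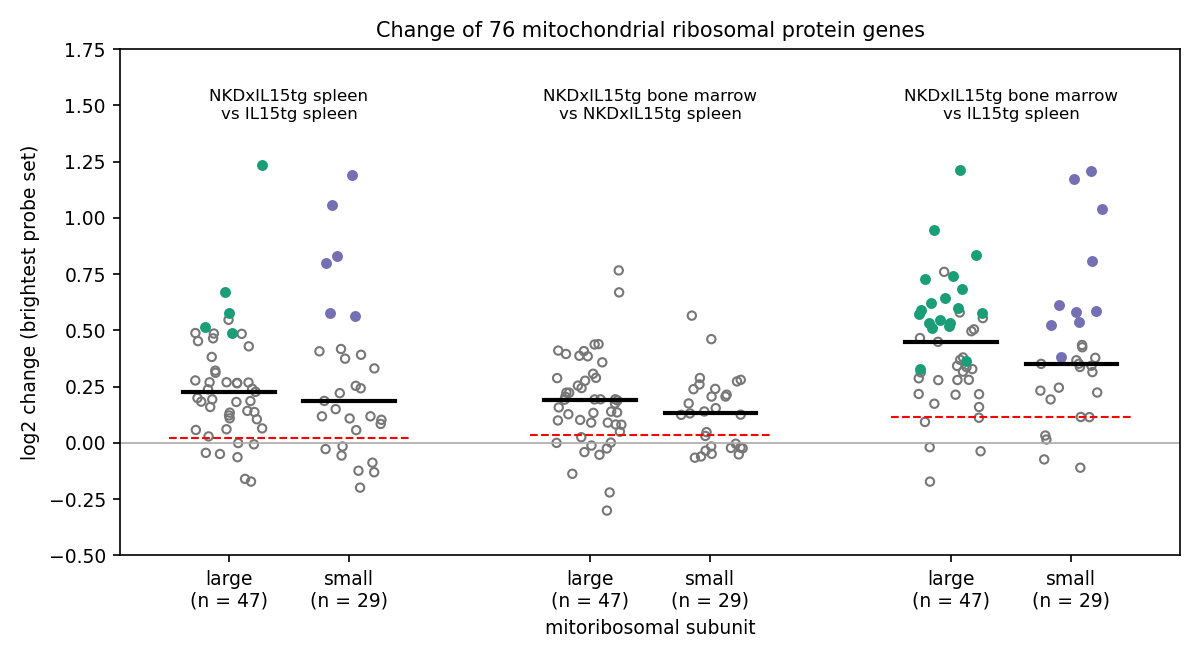
Log2 change of each of the 76 genes (brightest probe set) by subunit in the 3 comparisons; filled points passed the test (adjusted p under 0.05), open points did not, black bars are medians of a subunit and red dashed lines the median of all genes tested. Filled points are all above 0 (5 large and 6 small in the spleen, 19 large and 10 small in marrow against IL15tg spleen), and none is filled between the NKDxIL15tg groups.

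Genes of both subunits were called higher, and their counts and medians are set side by side. In the spleen, 5 of 47 large subunit genes (10.6%) and 6 of 29 small subunit genes (20.7%) were higher, with median log2 changes of 0.23 and 0.19. Over all genes tested 7.65% were higher and the median was 0.02. In marrow against IL15tg spleen, 19 of 47 (40.4%) and 10 of 29 (34.5%) were higher, with medians of 0.45 and 0.35. The values over all genes tested were 11.5% and 0.12. Between the NKDxIL15tg groups the medians were 0.19 and 0.13 with no calls, beside a median of 0.03 over all genes tested. The order of the called shares thus differed between both comparisons against IL15tg, and no test of the difference between subunits was run. Genes above 0 numbered 40 of 47 and 22 of 29 in the spleen, and 44 of 47 and 27 of 29 in marrow against IL15tg spleen. Of all genes tested 53.7% and 62.5% lay above 0 in these comparisons.

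Array by array, the subunits moved side by side. Each gene was set relative to its own mean log2 intensity in IL15tg spleen, and the median was taken over each subunit. NKDxIL15tg spleen replicates 1, 2 and 3 then stood at 0.12, 0.33 and 0.14 for the large subunit and at 0.12, 0.33 and 0.15 for the small subunit. In marrow the large subunit stood at 0.32, 0.39 and 0.44 and the small subunit at 0.33, 0.35 and 0.38. The IL15tg arrays lay between -0.08 and 0.08 for both subunits. All 6 NKDxIL15tg arrays lay above all IL15tg arrays, and NKDxIL15tg spleen replicate 2 lay within the range of marrow for the large subunit and just below it for the small. The median over all genes tested ran from -0.01 to 0.06 in 8 arrays and reached 0.14 in marrow replicate 3.

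**Figure D4:**
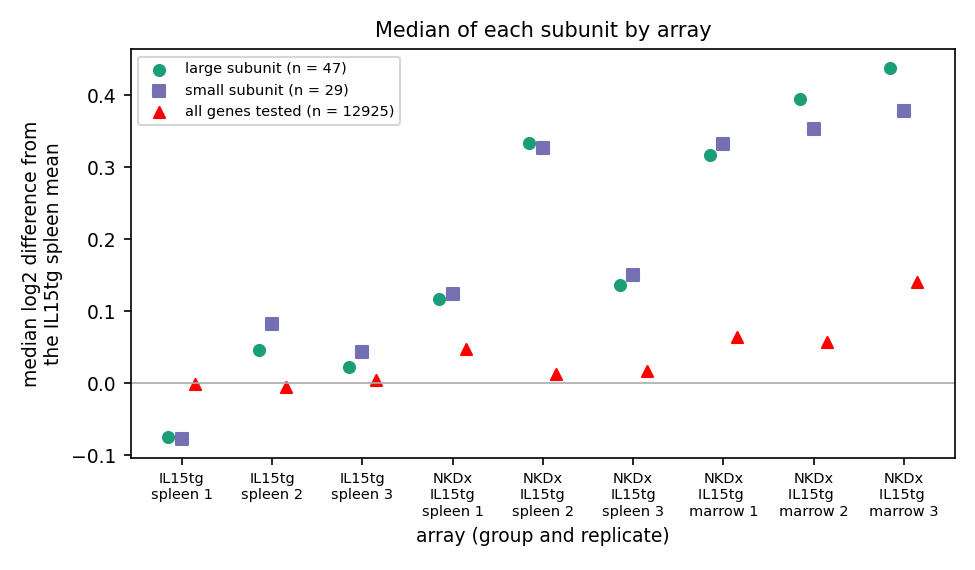
Median over each subunit of the log2 difference from a gene's own mean in IL15tg spleen, in each of the 9 arrays, with the same for all 12925 genes tested. Large and small subunit medians sit close together in every array, at 0.12 to 0.44 in the NKDxIL15tg arrays, above the medians of all genes.

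The members with the brightest and dimmest probe sets of each subunit are given next. Brightness depends on the probes as well as on the RNA, so the order of different genes is not an order of expression. Of the 3 brightest of the large subunit, Mrpl3 was called, while Mrpl51 had 1295 ± 159 in IL15tg spleen against 1782 ± 147 in NKDxIL15tg spleen, with 1793 ± 266 in marrow (SD, n = 3), and Mrpl33 had 1528 ± 93.7, 1494 ± 248 and 1524 ± 301. Neither of these passed the test. Of the brightest of the small subunit, Mrps14 had 1256 ± 180, 1461 ± 171 and 1594 ± 61.4 without passing, Mrps18c is given above, and Mrps16 had 527 ± 72.3, 705 ± 157 and 785 ± 34.4 and was higher in marrow than in IL15tg spleen (adjusted p = 0.0358). The dimmest were Mrpl37 and Mrpl38, neither of which passed, and Mrps11 and Mrps27, of which Mrps27 was higher in marrow than in IL15tg spleen, with 81.6, 74.8 and 117 against 52.8, 63.9 and 62.4 (log2 change 0.59, adjusted p = 0.0401). The highest of these is from marrow replicate 3, and without it the change was 0.39 (adjusted p = 0.0514). Of the 9 fits that leave out 1 array, this call for Mrps27 held only without marrow replicate 2 (adjusted p = 0.0514 to 0.146 in the others), and it was lost with the replicate block (adjusted p = 0.0538). The call for Mrps16 was lost without IL15tg replicate 1 or 2 or any 1 marrow array (adjusted p = 0.0515 to 0.133).

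By place in the ribosome, the called genes were spread over several sites. Of 4 stalk genes 1 was higher in the spleen and 2 in marrow against IL15tg spleen, and of 5 exit tunnel genes likewise 1 and 2. None of 7 central protuberance genes was higher in the spleen and 2 were in marrow. Of 8 genes for the small subunit's head, Mrps10 alone was higher, in both comparisons. With so few genes a site, 1 call is already 12.5% to 25% of a site, so these counts are read beside the 7.65% and 11.5% of all genes called higher and single out no site. Genes with a bacterial counterpart and mitochondria-specific genes were sorted mainly by their number. In the spleen 3 of 29 and 2 of 18 were called in the large subunit, and 3 of 17 and 3 of 12 in the small subunit. In marrow against IL15tg spleen these were 13 of 29, 6 of 18, 6 of 17 and 4 of 12. Mrps28, counted as mitochondria-specific here, is paired with the bacterial protein S1 in newer naming. Structures of the ribosome place Mrps30 and Mrps18a in the large subunit and leave Mrps36 out. With that assignment 6 of 49 large and 5 of 26 small subunit genes were higher in the spleen, and 20 of 49 and 9 of 26 in marrow.

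Chromosome 17 carried 8 members, the most after chromosome 11 with 11. In the spleen 4 of the 8 were higher, namely Mrps10, Mrps18a, Mrps18b and Mrps34, beside 10.3% of the 640 genes tested on that chromosome. In marrow against IL15tg spleen Mrpl2 and Mrpl28 joined them, making 6 of 8 beside 15.8%. None of the 11 on chromosome 11 was higher in the spleen, beside 6.68% of the genes tested there, and 3 were in marrow, beside 10.5%. This grouping was noticed after the values were seen, and it is a description without a test.

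Promoter windows of 300 bases (250 before to 50 after the start) were found in RefSeq for 67 of the 76 genes. Mrpl4, Mrpl13, Mrpl15, Mrpl19, Mrpl38, Mrpl54, Mrps28, Mrps34 and Mrps35 had none. Letters were searched on both strands. The ETS core CCGGAAGT, seen above in Mrpl3 and Mrps22, was present in 17.9% of the members' windows and in 6.65% of the 14369 windows of genes with a probe set of their own. AAGATGGC, the core bound by YY1, was in 17.9% of members and in 4.09% of those genes, and GCGCATGCG, the core bound by NRF1, in 10.4% and 3.10%. The E-box CACGTG, bound by MYC and others, was in 7.46% and 10.3%. None of these motifs contains another of them.

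The ETS matches of members lay close to the start, with 9 of 12 within 100 bases before it and a median position of -27, while 1 of 12 YY1 matches lay there and the median was 15, after the start. NRF1 letters were in 6 of 41 large subunit windows and in 1 of 26 of the small subunit, that of Mrps18b, before the stretch printed above. YY1 letters were in 6 of 41 and 6 of 26, among them Mrps18a. Between the 25 members called higher in at least 1 comparison and the 42 others with a window, the shares were 20.0% and 16.7% for ETS, 16% and 19.0% for YY1, 12% and 9.52% for NRF1 and 8% and 7.14% for the E-box. A match is a description of the letters, and binding was not measured.

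Other genes of the pathway were read from lists of known components. The counts stand beside all genes tested, of which 7.65% were higher and 4.87% lower in the spleen. In marrow against IL15tg spleen these shares were 11.5% and 8.7%. Of 26 tested genes for assembly of the mitochondrial ribosome and modification of its rRNA, 4 were higher in NKDxIL15tg than in IL15tg spleen and none was lower. C1qbp, an acidic matrix protein needed for mitochondrial translation, changed most, from 1451 ± 58.0 to 6518 ± 497 (SD, n = 3), with 7212 ± 554 in marrow. Its log2 changes against IL15tg spleen were 2.17 ± 0.11 in spleen (adjusted p = 5.43e-06) and 2.31 ± 0.11 in marrow (adjusted p = 3.57e-06). The second probe set of C1qbp gave 2.62 and 3.01. Both are above the change of any member by its brightest probe set.

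The other assembly genes that rose in the spleen were Fastkd2, which binds the large subunit's rRNA, with 0.57 ± 0.11, Tfb1m, which methylates the small subunit's rRNA, with 0.56 ± 0.12, and Mettl15, another methyltransferase of that rRNA, with 0.41 ± 0.10. For Fastkd2 and Tfb1m further tested probe sets did not pass in the spleen. The same 4 genes were higher in marrow than in IL15tg spleen, where Dhx30, a helicase of mitochondrial RNA granules, was lower (-0.62 ± 0.16, adjusted p = 0.0238).

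Ribosomal proteins that bear other names are too few to set against the shares over all genes. Of the 4 measured, Dap3, Ptcd3, Chchd1 and Gadd45gip1, none passed in the spleen, and Dap3, a GTP-binding protein of the small subunit, was higher in marrow than in IL15tg spleen with 0.48 ± 0.14 (adjusted p = 0.0394). Among 11 tested translation factors none passed in the spleen and Gfm2, which recycles the ribosome, was higher in marrow (0.40 ± 0.11). The factor Tufm, which brings charged tRNA to the ribosome, had a change of 0.08 in the spleen and 0.68 in marrow, neither of which passed. Of 19 aminoacyl-tRNA synthetases none passed in the spleen, while Kars (0.80 ± 0.22) and Yars2 (0.61 ± 0.17) were higher in marrow. Without marrow replicate 3 Kars missed the threshold (0.71, adjusted p = 0.0505).

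Of 18 genes for mitochondrial DNA maintenance and transcription, Tefm, a transcription elongation factor, was higher in the spleen (0.80 ± 0.18) and Top1mt, the mitochondrial topoisomerase, was lower (-1.10 ± 0.28). In marrow against IL15tg spleen Tefm and Slirp, which stabilises mitochondrial messages, were higher and Polg2, a subunit of the DNA polymerase, was lower (-0.44, and -0.33 with adjusted p = 0.0685 without marrow replicate 3). Among 13 regulators of mitochondrial biogenesis, Myc was higher in both comparisons against IL15tg, with 0.81 ± 0.17 and 0.82 ± 0.17. The coactivator Ppargc1b was lower in both, with -0.92 ± 0.12 and -0.50 ± 0.12, and so was Nrf1, with -0.70 ± 0.12 and -0.68 ± 0.12. The probe sets of Nrf1 disagreed: another was also lower in the spleen (-0.98), while the remaining ones, at -0.07 and -0.02, did not pass. No gene of these lists passed the test between the NKDxIL15tg groups.

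Genes of dividing cells moved with the members. All 10 tested ones, among them Mki67, Ccna2, Cdk1 and Mcm5, were higher in NKDxIL15tg than in IL15tg spleen, with log2 changes from 0.50 for Mcm5 to 1.82 for Ccna2, and all 10 were higher in marrow than in IL15tg spleen. Summed over the 11 such genes with a probe set, the intensity was 4464 to 5029 in IL15tg spleen against 7092 to 9789 in NKDxIL15tg spleen, with 10702 to 11880 in marrow. Markers of neutrophils and monocytes moved the same way, with 5 of 9 higher in the spleen and 8 of 9 in marrow against IL15tg spleen. Of all genes tested 7.65% and 11.5% were higher in these comparisons. Sums over 5 erythroid markers were 1616 to 1765, 7216 to 7701 and 5093 to 7102, with 3 of 4 tested higher in both. Of 8 NK cell markers 2 were lower in the spleen and 3 in marrow against IL15tg spleen, with 2 above 0 in each comparison. The 3 in marrow were Klrk1 (log2 change -3.10), Klrd1 (-2.91) and Prf1 (-0.86). Of 4 tested B cell markers 3 were lower in both, and no T cell marker passed. Over all genes tested 4.87% were lower in the spleen and 8.7% in marrow against IL15tg spleen. Between the NKDxIL15tg groups the neutrophil gene Mpo was higher in marrow and the B cell gene Ms4a1 was lower. No marker was under the floor on all arrays of a group. The part of these cells and of division in the members' changes was not tested.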

How the data were processed

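RNA of sorted NK cells was measured on 9 Affymetrix arrays, from 150 ng of total RNA amplified in 2 rounds by a 3' method, per the labels. Each probe set has 1 intensity, on a linear scale, in the table the authors deposited. Its summary method and scaling are not given in the sources used here. The number of arrays limits the precision. Here, intensities under 16 (4.36% of values) were set to 16 and log2 was taken. Array medians differed by at most 0.20 (log2), below a limit of 0.3, so no rescaling was done. The 64 control probe sets were left out, and the 27022 probe sets whose mean log2 value reached the 40th percentile, 5.58 or an intensity of 47.7, entered the fit.

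A model with 3 group means covered all 9 arrays (limma 3.58.1, lmFit and eBayes, under R 4.3.3), with 2-sided tests and Benjamini-Hochberg adjustment over all tested probe sets. Symbols came from the platform annotation, in which 34945 probe sets carry 1 symbol; 4 probe sets that share a member's symbol with another gene were left out. In simulated data for the spleen comparison (27022 probe sets, 50 changed at each size) the fit recovered 0% of 1.25-fold, 8% of 1.5-fold, 52% of 2-fold and 86% of 4-fold changes. Far fewer probe sets changed there than were called in the real comparison (6.75% higher and 7.04% lower), which makes the adjusted threshold stricter. The simulated noise was also independent between probe sets. These rates therefore do not measure recovery in the real data.

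The members and lists were chosen with earlier results of these data known. Named genes are, per comparison, up to 10 called members in each direction with the largest changes, the 3 brightest and 2 dimmest of each subunit, members whose probe sets disagree, and called list genes, at most 6 a list. Genes outside this rule are named to complete small counts, chosen after their values were seen. The labels number the replicates in every group. The correlation of same-numbered arrays' deviations from their group means was 0.16, 0.16 and 0.12 for the 2 spleen groups, and 0.38, 0.26 and 0.23 for the NKDxIL15tg groups. For marrow against IL15tg spleen it was 0.17, -0.02 and 0.24. Only between the NKDxIL15tg groups did every array match its own number best. The labels do not say that the numbers pair arrays, so the main fit has no replicate block. Alternatives covered scaling, floor, filter, probe set choice, array weights, the replicate block and leaving out each array.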

Additional observations from a re-analysis of the deposited data

How the results depend on the processing

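No alternative reversed a result, and no member passed the test between the NKDxIL15tg groups in any of them. In the spleen (main value 11), 20 members were called with array weights and 17 when only the 2 groups compared were fitted. The shares of all genes called were 19.1% and 17.4% (main value 12.5%). Leaving out 1 array gave 5 to 21 members, beside 6.21% to 18.4%. The other 9 alternatives gave 8 to 20, beside 5.33% to 19.1%. Mrpl23, Mrps22 and Mrps34 lost their spleen calls after quantile normalization, and Mrpl23, Mrps28 and Mrps34 with a floor of 64. Mrps6 was called lower there after averaging each gene's probe sets, and also after dropping those that may bind several transcripts. In marrow against IL15tg spleen (main value 29), 17 were called after quantile normalization, 17 after scaling to the 75th percentile and 19 with a floor of 64, beside 18.9%, 16.9% and 9.04% of all genes (main value 20.2%); leaving out 1 array gave 12 to 28, beside 10.7% to 21.7%. The median log2 change of small subunit genes there was 0.17 with the mean of each gene's probe sets in place of the brightest (main value 0.35). With the replicate block, 12, 0 and 25 members were called in the 3 comparisons. The shares of all genes called in that fit lay within 5.33% to 19.1%, 0% to 0.117% and 9.04% to 28%. These are the ranges over the 9 alternatives that keep every array. In marrow against IL15tg spleen Mrpl10, Mrpl44, Mrps5 and Mrps27 missed the threshold with the replicate block, and no other member's call was lost. Over the 18 alternatives per gene, Mrpl3, Mrps10, Mrps18a and Mrps18b held their calls throughout in both comparisons against IL15tg, as did Mrpl2, Mrpl34, Mrpl41 and Mrps28 in marrow. The medians of both subunits stayed above 0 in every alternative and comparison, the lowest being 0.05, for the small subunit between the NKDxIL15tg groups after scaling to the 75th percentile. Values of further genes without marrow replicate 3 were added after seeing the data. Mrpl37, Mrps12 and Mrps24 have only probe sets that may bind transcripts of other genes.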

Other observations

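Outside the members, the genes whose values over the 9 arrays were most like the per-array median of the members were 5830468F06Rik (Pearson r = 0.995), Gm9925 (r = 0.989), Uqcrq (r = 0.979), Nkx2-4 (r = 0.977) and Dppa4 (r = 0.976). Uqcrq, a subunit of respiratory complex III, had intensities of 340 ± 13.2 in IL15tg spleen, against 383 ± 44.0 in the NKDxIL15tg spleen arrays and 489 ± 125 in marrow (SD, n = 3). The other 4 were dim, with group means from 44.7 to 125. Without marrow replicate 3, which had the highest median of the members, the 5 correlations over 8 arrays were 0.989, 0.973, 0.968, 0.948 and 0.981, and Uqcrq read 403 and 432 in the remaining marrow arrays against 633 in replicate 3; this step was added after seeing the data. These are the highest of many correlations over 9 arrays that share their groups, and they are given as a description.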
